A study of Mus musculus with 15 samples.

Results

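The cleavage and polyadenylation factors, 10 genes of the machinery that cuts the 3′ end of pre-mRNA and adds the poly(A) tail, were followed across CD8+ T cells of 3 activation states. The set is defined by name (Cpsf3, Cpsf6, Cpsf7, Nudt21, Cstf2, Cstf2t, Cstf3, Pcf11, Fip1l1 and Papola), and no expression value enters its rule. All 10 were found among the 55536 genes of the count table that matched the GENCODE M21 mouse annotation, and all 10 were among the 17366 genes that passed the filter on low counts. In costimulated effector cells compared with naive cells, Nudt21, Cstf2 and Cpsf6 rose, by 1.64- to 2.01-fold, and Pcf11 and Cstf2t fell. The other 5 factors did not pass the test, and none of the 10 passed it when antigen alone was compared with either other state. The 5 calls stand against 44.7% of all genes called in the same comparison. With sequencing lane as a term in the fit all 5 calls were lost, where 5.43% of all genes were called. The 5 kept their direction in that fit, and only Ag+Costim has libraries in both lanes.

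Most mRNAs end by a cut made downstream of a hexamer, usually AATAAA, which the cleavage and polyadenylation specificity factor (CPSF) reads. Cpsf3 is the endonuclease of CPSF, Fip1l1 is a CPSF subunit that links it to the poly(A) polymerase, and Papola is that polymerase. The cleavage stimulation factor (CstF) binds U- or GU-rich sequence after the cut. Cstf2 and its paralog Cstf2t are alternative RNA-binding subunits of CstF, and Cstf3 is the scaffold that holds it together. Cleavage factor I binds UGUA elements before the cut, through Nudt21, with Cpsf6 or Cpsf7 as its larger subunit. Pcf11, of cleavage factor II, also helps RNA polymerase II to terminate. Many genes hold more than 1 such site, and the supply of these factors is known to bear on which site is used. Activated, dividing T cells are known for a shift towards sites nearer the start of the 3′ untranslated region.

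The libraries come from CD8+ T cells of OT-I transgenic mice (C57BL/6J), whose T cells carry 1 receptor, for the ovalbumin peptide SIINFEKL. Naive cells (5 libraries) were purified from OT-I mice with no transfer. For the other groups OT-I cells were injected into wild-type C57BL/6J recipients. Ag (5 libraries) received the peptide with a control rat IgG. Ag+Costim (5 libraries) received the peptide with agonist antibodies to OX40 (CD134) and 4-1BB (CD137), costimulatory receptors of the TNF receptor family. The labels give day 4 for the collection of these cells from spleen and lymph nodes. The study describes OT-I donors on a Rag1-/- or Rag2-/- background, without saying which donor gave which library, and the age of the animals is not stated per library. Naive therefore differs from both other groups by the transfer and the host as well as by the antigen. The study describes the libraries of a group as separate biological replicates. Recorded sex is the same in the 3 groups by replicate, with 1, 2 and 5 female and 3 and 4 male.

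The gene totals ran from 4865952 counts (Ag replicate 3) to 25280667 counts per library, with a median of 14967616. All 6 CD8 T cell markers were detected in every group, at a summed 3705 to 8032 CPM (the count scaled to the library's total). B cell markers summed to 177 to 389 in Ag 1, 3 and 4, against 25.1 to 45.3 in the other 12 libraries. Erythroid markers reached 1238 in Ag 3. Ag 2 and Ag 5, with a recorded input amount of 1.4 and 1.8 against 7 to 10 elsewhere, went against their label on the first principal component, with scores of 87.8 and 109, beside 67.8 to 92.1 in Ag+Costim and −75.7 to −56.8 in the other 3 Ag libraries. Naive 5 stood apart from the other 4 Naive libraries, with 2.03 against −113 to −74.3. Whether these 3 libraries hold the cells their labels name was not tested, so every Ag and Naive value rests on labels that the data leave in doubt. The 6 proliferation markers summed to 1938 CPM in Naive 5, against 93.3 to 737 in the other Naive libraries. In Ag they were at 482 and 507 in replicates 4 and 1 and at 1809 to 2409 in the rest, and in Ag+Costim at 2348 to 2729. Sequencing lane 2 held all Ag and Ag+Costim 1 to 3, and lane 3 held Ag+Costim 4 and 5 and all Naive, so lane and group cannot be told apart for Ag against Naive. Counts of calls without these libraries are given for some comparisons, and otherwise lie within the ranges given over fits with 1 library left out.

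The 3′ ends annotated for the factors' own transcripts are shown because their shares are described further on. Each line gives the last 30 bases of a transcript as DNA, 5′ to 3′, from the mm10 (GRCm38) genome and GENCODE M21, with a hexamer AATAAA or ATTAAA in capitals. Cpsf6 has a long form and a form that ends in the gene body with the same coding length of 1653 bases, Cstf3 and Pcf11 have early ends, and Cstf2t has neither hexamer.
Nudt21-201, chr8:94015496-94015525, minus strand: gttatttcAATAAAaatatttaaaactgaa
Cpsf6-201 (long form), chr10:117344673-117344702, minus strand: tcttgtattgaaAATAAAaacaaagttttg
Cpsf6-208 (shorter form), chr10:117353805-117353834, minus strand: tggAATAAAtggactaagaagtacttcacc
Cstf2-201, chrX:134086790-134086819, plus strand: ctgtcgtggattcAATAAAtattttaaaag
Cstf2t-201, chr19:31087040-31087069, plus strand: acaaaatataacagttctttgcattaagac
Cstf3-201 (long form), chr2:104665400-104665429, plus strand: aaaggAATAAAaggacctcaaaaacatgcc
Cstf3-202 (early end), chr2:104611377-104611406, plus strand: gaaAATAAAgctttgttaatacgttgttgt
Cstf3-206 (early end), chr2:104609400-104609429, plus strand: tgcaacaacATTAAAacagtttcaatggtg
Pcf11-201 (long form), chr7:92643543-92643572, minus strand: ATTAAAacttgtgattttttttccgtggga
Pcf11-205 (early end), chr7:92668184-92668213, minus strand: aaaatttgtgAATAAAacatataaaatatg

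Of the 10 transcripts with the most counts, 1 for each factor, 7 had AATAAA in their last 50 bases, 1 (Pcf11-201) had ATTAAA without AATAAA, and 2 (Cpsf3-201 and Cstf2t-201) had neither. Only the strand of the transcript was searched. Over 47990 protein-coding transcripts with a complete annotated end, 49.3% had AATAAA, 11.6% had ATTAAA alone and 39.1% had neither. TGTA, the core of the element that Nudt21 binds, was in the last 100 bases of 8 of the 10, against 47.6% of all those transcripts. The 2 sets are unlike. The 10 are the most counted transcripts, and 1 of them (Papola-214) is annotated for nonsense-mediated decay and not as protein-coding. The 47990 were taken whether expressed or not. The hexamers and TGTA are matches of letters and not measured sites.

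Per length, in TPM (the count scaled to transcript length and library total), Papola was the most abundant factor in every group, and its values did not overlap those of the next factor. Its mean level was 169 ± 33.5 TPM for Naive, 134 ± 21.1 for Ag and 201 ± 24.8 for Ag+Costim (SD, n = 5). Cpsf3 came second in each group, at 101 ± 16.5, 87.7 ± 2.37 and 108 ± 8.06 TPM. Beneath Papola, each Naive factor overlapped its neighbour in the order. For Ag and Ag+Costim the order broke above Cpsf7, and in Ag+Costim also between Cpsf7 and Cstf2t. Cpsf7, Cstf2t and Pcf11 were the 3 lowest in all groups. Pcf11 averaged 28.7 ± 8.39 TPM in Naive and 11.8 ± 0.577 in Ag+Costim. Over all libraries the factors lay between the 58.2 percentile (Cstf2t) and the 93.6 percentile (Papola) of mean TPM among the genes tested.

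How much the factors varied between replicates depended on the group. The median coefficient of variation of the 10, on CPM, was 21.1% for Naive libraries, 20.8% for Ag libraries and 6.30% for Ag+Costim libraries. The same median over all 17366 genes was 25.5%, 38.3% and 11.99%. On CPM, Nudt21 was the steadiest factor in Ag+Costim, at 2.80%, and Pcf11 the most variable in Ag, at 50.9%. In TPM, Nudt21 was the most variable factor in Ag+Costim, at 16.5%.

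**Figure D1:**
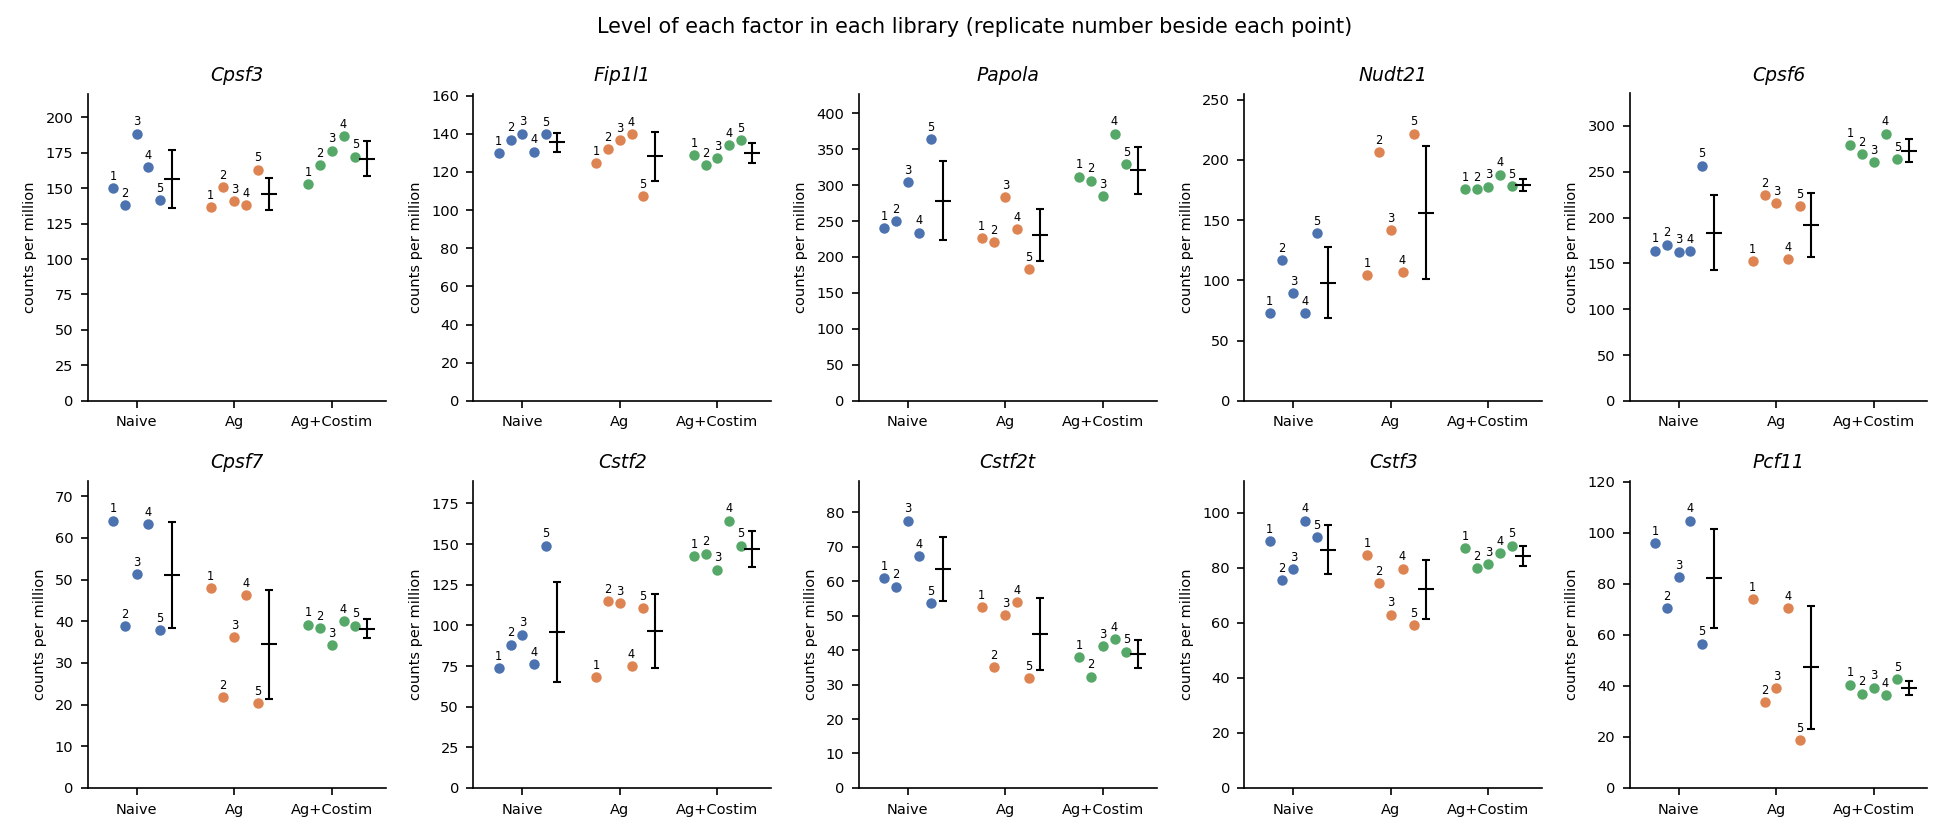
Level of each of the 10 factors in CPM (linear vertical axes from 0) in every library of Naive, Ag and Ag+Costim; numbers are replicates, and black marks are means with SD, n = 5. Nudt21 in Ag+Costim sits between 176 and 188, and Pcf11 in Ag spreads from 18.8 to 74.0.

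In the subunits of cleavage factor I, Nudt21 and Cpsf6 were higher in Ag+Costim than in Naive in every library in CPM, and Cpsf7 was not. In TPM both overlapped through Naive 5. Nudt21 had 82.3 TPM in Naive 5, against 62.0 to 93.0 in Ag+Costim. Its mean was 83.3 ± 27.8 TPM in Ag and 75.8 ± 12.5 in Ag+Costim (SD, n = 5). Cpsf6 had 87.4 TPM in Naive 5, against 86.7 to 99.4 in Ag+Costim. Nudt21 (chr8:94015496-94037031, minus strand) had 72.7, 117, 89.4, 73.0 and 139 CPM in Naive replicates 1 to 5. It had 104, 206, 142, 107 and 222 CPM in Ag. In Ag+Costim the values were 176, 176, 178, 188 and 178 CPM. Ag 2 and Ag 5 were above every Ag+Costim library, Ag 1 and Ag 4 were within the Naive range, and the lowest Ag+Costim library was above the highest Naive library. Against Naive, Nudt21 was 2.01-fold higher in Ag+Costim (log2 fold change 1.00 ± 0.27 SE, edgeR adjusted p = 0.0143). In Ag its log2 fold change against Naive was 0.79 ± 0.27 (edgeR adjusted p = 0.0877), and between Ag+Costim and Ag it was 0.22 ± 0.27 (edgeR adjusted p = 0.623). The gene Gm7488 shares 11.8% of the 50-base stretches of Nudt21 and had 8896 counts over all libraries against 31683 for Nudt21, so reads may be split between them. In bulk libraries such as these, fewer cells of a type and less RNA per cell cannot be told apart.

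Cpsf6 (chr10:117344673-117380015, minus strand), the larger subunit that most often partners Nudt21, had 164, 171, 163, 163 and 257 CPM in Naive. The Ag libraries gave 153, 225, 216, 155 and 213 CPM. In Ag+Costim Cpsf6 stood at 279, 269, 261, 292 and 264 CPM. In CPM, every Ag+Costim library was above every Naive and every Ag library, with Naive 5 close beneath. Cpsf6 was 1.64-fold higher in Ag+Costim than in Naive (log2 fold change 0.71 ± 0.19, edgeR adjusted p = 0.0135). Between Ag+Costim and Ag the log2 fold change was 0.54 ± 0.19, which did not pass (edgeR adjusted p = 0.105).

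Cpsf7 (chr19:10525266-10547653, plus strand), the alternative larger subunit, had 64.2, 38.9, 51.4, 63.3 and 37.9 CPM in Naive. It stood at 48.0, 21.8, 36.2, 46.2 and 20.3 CPM in Ag. In Ag+Costim it had 39.2, 38.4, 34.2, 40.1 and 38.9 CPM. All 3 groups overlapped. The log2 fold changes were −0.50 ± 0.20 for Ag against Naive (edgeR adjusted p = 0.126) and −0.26 ± 0.20 for Ag+Costim against Naive (edgeR adjusted p = 0.282). The opposite-strand gene Sdhaf2, with 19826 counts against 8977 for Cpsf7, overlaps its first part, and the library kit keeps no strand.

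The balance between the 2 larger subunits differed by library. The TPM ratio of Cpsf6 to Cpsf7 was 2.03, 3.39, 2.25, 1.81 and 4.78 in Naive replicates 1 to 5. It was 2.56, 6.24, 5.03, 2.79 and 7.54 in Ag, and 4.79, 5.38, 5.46, 4.76 and 4.94 in Ag+Costim. Naive 5 lay within the Ag+Costim range and the other Naive libraries lay beneath it, while Ag covered almost the whole span. This ratio and the next were computed after the levels were seen and were not tested.

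In CstF, Cstf2 and Cstf2t moved in opposite directions between Naive and Ag+Costim. Cstf2 (chrX:134059187-134086819, plus strand) had 73.6, 88.1, 94.2, 76.0 and 149 CPM in Naive. Ag gave 68.0, 115, 114, 75.1 and 111 CPM. Ag+Costim gave 143, 144, 134, 164 and 149 CPM. Naive 5 was as high as Ag+Costim, and the other 4 Naive libraries and all Ag libraries were lower than every Ag+Costim library. Cstf2 was 1.68-fold higher in Ag+Costim than in Naive (log2 fold change 0.75 ± 0.24, edgeR adjusted p = 0.0250). Its difference between Ag+Costim and Ag was 0.64 ± 0.24 on the log2 scale (edgeR adjusted p = 0.118). This call was lost when Naive 1, 2, 3 or 4 was left out (edgeR adjusted p = 0.0518 to 0.0682), and without Naive 5 the log2 fold change was 1.01 (edgeR adjusted p = 0.00251).

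Cstf2t (chr19:31082837-31087069, plus strand) is a single-exon copy of Cstf2. It had 60.8, 58.5, 77.6, 67.4 and 53.6 CPM in Naive and 52.5, 35.1, 50.1, 54.0 and 31.8 CPM in Ag. In Ag+Costim the values were 37.9, 32.3, 41.2, 43.3 and 39.5 CPM. Every Ag+Costim library was lower than every Naive library. Against Naive, Cstf2t fell in Ag+Costim by 0.56 ± 0.14 on the log2 scale (edgeR adjusted p = 0.00952). In Ag the log2 fold change was −0.43 ± 0.14 (edgeR adjusted p = 0.0683). No 50-base stretch of Cstf2t occurs in another annotated gene, Cstf2 included.

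The TPM ratio of Cstf2 to Cstf2t was 1.30, 1.59, 1.31, 1.16 and 2.96 in Naive replicates 1 to 5. In Ag it was 1.30, 3.54, 2.28, 1.53 and 3.92, and in Ag+Costim 4.14, 4.85, 3.46, 4.00 and 3.95. Ag 1 and Ag 4 lay with the first 4 Naive libraries, and Ag 2 and Ag 5 lay with Ag+Costim. The libraries with a high ratio (Naive 5, Ag 2, Ag 3, Ag 5 and all of Ag+Costim) are those with proliferation markers at 1809 CPM or above, and the part of proliferation in this order was not tested.

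**Figure D2:**
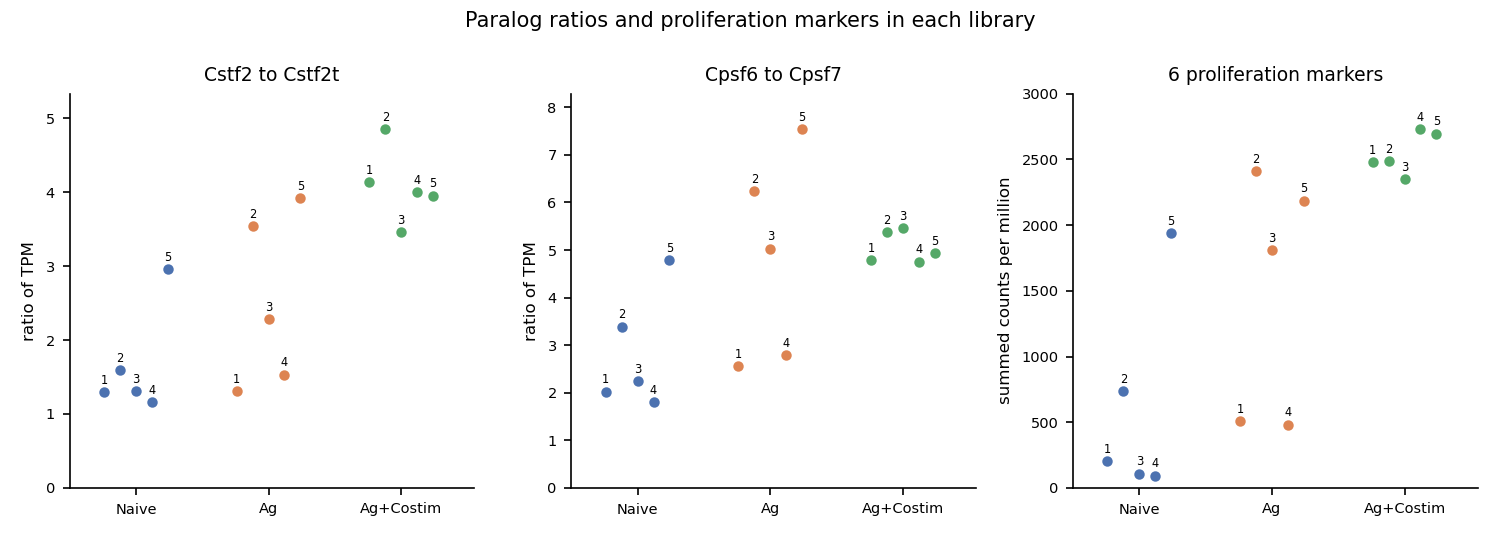
TPM ratio of Cstf2 to Cstf2t, TPM ratio of Cpsf6 to Cpsf7, and summed CPM of 6 proliferation markers, each on a linear vertical axis from 0, 1 point per library with its replicate number. In the Cstf2 panel Ag+Costim runs from 3.46 to 4.85 and Naive from 1.16 to 2.96, and Naive 5 is the highest Naive library in all 3 panels.

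Cstf3 (chr2:104590523-104665429, plus strand) had 75.5 to 97.1 CPM in Naive (median 89.7), 59.2 to 84.5 in Ag (median 74.5) and 79.8 to 88.0 in Ag+Costim (median 85.2). In CPM the groups overlapped in each comparison. In TPM every Naive library (63.6 to 94.3) was above every Ag (35.0 to 60.5) and every Ag+Costim library (52.4 to 57.3). TPM was not tested. On counts, the log2 fold change of Cstf3 was 0.29 ± 0.09 for Ag+Costim against Ag (edgeR adjusted p = 0.0886). For Ag+Costim against Naive it was 0.11 ± 0.09 (edgeR adjusted p = 0.317). A change in which Cstf3 transcripts held the counts is described further on.

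Pcf11 (chr7:92643543-92669934, minus strand) was lower in every Ag+Costim library than in every Naive library. It had 95.9, 70.5, 82.6, 105 and 56.5 CPM in Naive. The Ag values were 74.0, 33.7, 39.0, 70.3 and 18.8 CPM. In Ag+Costim it had 40.5, 36.9, 39.2, 36.3 and 42.6 CPM. Ag 1 and Ag 4 were within the Naive range and Ag 2 and Ag 5 were beneath all Ag+Costim libraries. Pcf11 fell in Ag+Costim against Naive by 0.91 ± 0.25 on the log2 scale (edgeR adjusted p = 0.0154), a call that was lost without Ag+Costim 4 (edgeR adjusted p = 0.0575, where 29.6% of all genes were called). Its log2 fold change in Ag against Naive was −0.75 ± 0.25 (edgeR adjusted p = 0.0827). The opposite-strand genes 6430511E19Rik and Gm26944 overlap its last part and had 623 and 109 counts, against 12265 for Pcf11.

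The endonuclease, its linker and the polymerase gave no call. Fip1l1 (chr5:74535449-74598800, plus strand) was the flattest factor, with 129.8 to 140.1 CPM in Naive, 107 to 139.8 in Ag and 123 to 137 in Ag+Costim. Its log2 fold changes lay between 0.01 ± 0.09 and 0.09 ± 0.09. Cpsf3 (chr12:21285391-21315056, plus strand) had 138 to 188 CPM in Naive, 136 to 163 in Ag and 153 to 186 in Ag+Costim, with a log2 fold change of 0.28 ± 0.12 for Ag+Costim against Naive (edgeR adjusted p = 0.0736). The opposite-strand gene Itgb1bp1, with 17327 counts against 34995 for Cpsf3, overlaps the start of Cpsf3.

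Papola (chr12:105784694-105838944, plus strand) had 239.9, 250.1, 304, 234 and 364 CPM in Naive. It had 226, 220.1, 283, 239 and 183 CPM in Ag. In Ag+Costim it stood at 312, 306, 284, 371 and 329 CPM. Every Ag+Costim library was above every Ag library, by little in the case of Ag 3. The log2 fold change was 0.54 ± 0.16 for Ag+Costim against Ag (edgeR adjusted p = 0.0829) and 0.35 ± 0.16 for Ag+Costim against Naive (edgeR adjusted p = 0.0838). Without Naive 5 the latter was 0.51 and passed (edgeR adjusted p = 0.00960), as did 51% of all genes.

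Counted over the 10 factors, Ag against Naive gave 0 calls, while 6.71% of all genes tested were called. At an unadjusted p under 0.05, 4 of the 10 were counted in edgeR, against 4980 of all genes (28.7%). DESeq2, the tool of the study, called 3 (Nudt21 higher, Pcf11 and Cstf2t lower), against 18.6% of the genes it tested. The same 3 were called by edgeR without Naive 5 (background 21.5%) or without Ag 4 (background 11%). Without Ag 1, Nudt21 and Pcf11 were called (background 10.4%), and without Ag 3, Cstf2t (background 6.99%). Without Ag 2 and Ag 5 none was called (background 4.61%), and the log2 fold change of Nudt21 was 0.21 and that of Pcf11 −0.43. On CPM, no factor had libraries that did not overlap, against 3.63% of all genes.

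Ag+Costim against Ag also gave 0 calls of 10, against 0.0346% of all genes (6 genes), with 5 of the 10 and 4647 genes in all (26.8%) at an unadjusted p under 0.05 in edgeR. DESeq2 called Papola, Cstf3, Cpsf6 and Cstf2, all higher, against 14.6% of the genes it tested. In Cpsf6, Cstf2 and Papola the libraries did not overlap, against 7.04% of all genes. The result turned on Ag 2 and Ag 5. Without Ag 2, edgeR called Cpsf6, Cstf2, Cstf3 and Papola (background 14.8%), and without Ag 5 it called Cpsf3 and Cpsf6 (background 19.7%). Without both, 7 of the 10 were called, all higher (Cpsf3, Cpsf6, Cstf2, Cstf3, Fip1l1, Nudt21 and Papola), against 50.5% of all genes in either direction. In that fit Nudt21 was higher by 0.93 on the log2 scale (edgeR adjusted p = 0.00361) and Cstf2 by 1.12 (edgeR adjusted p = 0.00320). The choice to leave out both was made after the libraries were seen. The Ag libraries left in, 1, 3 and 4, are those with B cell markers at 177 to 389 CPM. Ag 3 also had erythroid markers at 1238 CPM and 16.9% of its sequenced reads counted. The part of these traits in the calls was not tested. Within lane 2, which holds Ag+Costim 1 to 3 and all Ag, the log2 fold changes of Cpsf6, Cstf2 and Papola were 0.53, 0.57 and 0.45, and no factor passed (edgeR adjusted p = 0.628 for each of the 3).

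Ag+Costim against Naive gave 5 calls of 10, against 44.7% of all genes, so the share called was close to the background. Of all genes, 21% were called higher and 23.6% lower, and among the factors 3 were called higher and 2 lower. DESeq2 called 5, against 53.1% of the genes it tested. On CPM, the libraries did not overlap in Nudt21, Cpsf6, Pcf11 and Cstf2t, against 45.6% of all genes. Within lane 3, where only Ag+Costim 4 and 5 stand for that group, edgeR called Nudt21 (log2 fold change 1.06), Cpsf6 (0.76) and Pcf11 (−0.88), against 34.7% of all genes. With lane as a term in the fit of all libraries none of the 10 passed, against 5.43% of all genes (edgeR adjusted p = 0.0644 to 0.0937 for the 5), with log2 fold changes from −0.88 to 1.05. The comparisons share libraries, so their values are not independent of each other.

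**Figure D3:**
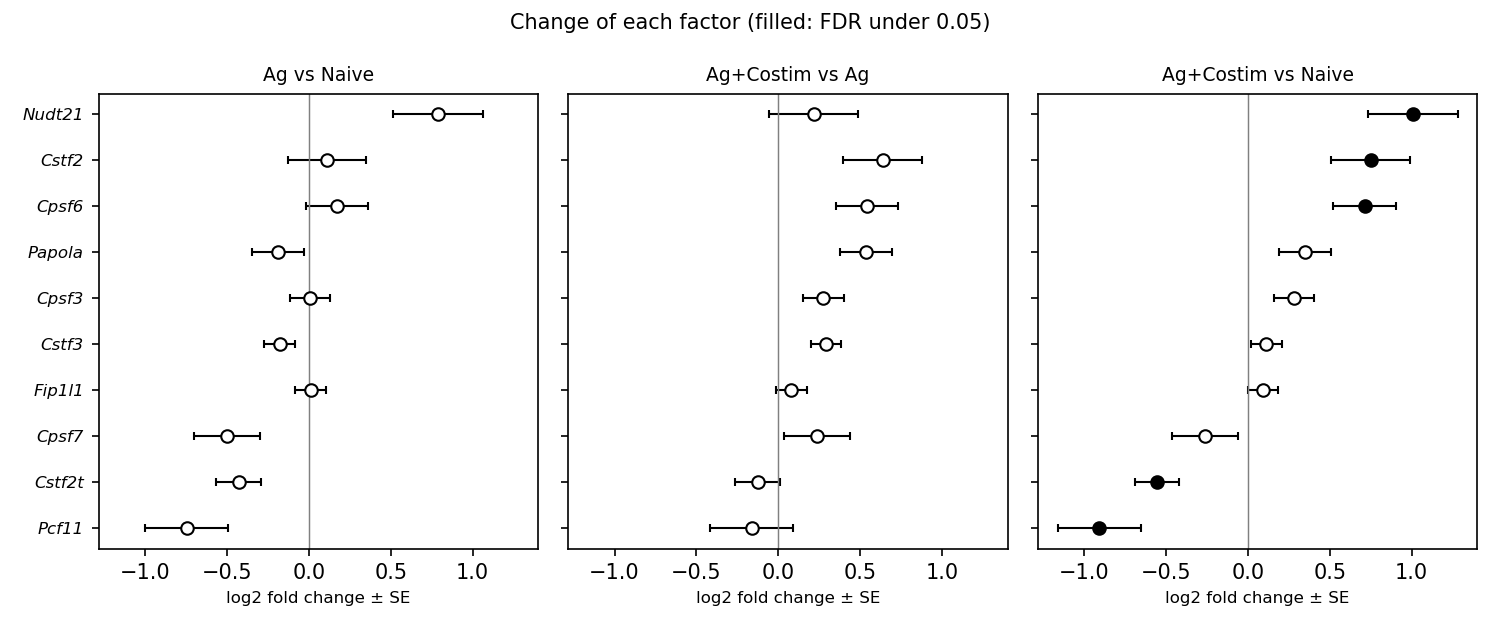
Log2 fold change with its SE (horizontal axes) of each factor in the 3 comparisons, from the edgeR fit over all 15 libraries; filled points have an adjusted p under 0.05. The filled points are Nudt21, Cstf2, Cpsf6, Cstf2t and Pcf11 for Ag+Costim against Naive, from 1.00 down to −0.91.

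The other core factors of the same complexes numbered 13, and all passed the filter. In Ag+Costim against Naive 6 of the 13 rose, 2 fell and 5 did not pass, while over all genes 44.7% were called, 21% higher and 23.6% lower. The list had a median log2 fold change of 0.33, against 0.20 for the 10 factors and −0.08 for all genes. Cpsf2, the inactive partner of Cpsf3, rose 1.95-fold (log2 fold change 0.96 ± 0.26, edgeR adjusted p = 0.0138), and Ppp1ca, a phosphatase catalytic subunit, rose 1.82-fold. Rbbp6, which activates the cut, fell by 0.87 ± 0.21 on the log2 scale (edgeR adjusted p = 0.00905). Wdr33, the CPSF subunit that contacts the hexamer, fell by 0.29 ± 0.11 (edgeR adjusted p = 0.0431). In Ag against Naive, Cpsf1, the scaffold of CPSF, fell by 0.55 ± 0.14 on the log2 scale (edgeR adjusted p = 0.0332) and Wdr33 by 0.39 ± 0.11 (edgeR adjusted p = 0.0439). They were the 2 calls of the 13 in that comparison, against 6.71% of all genes. None of the 13 passed in Ag+Costim against Ag (5 at an unadjusted p under 0.05 in edgeR), where Sympk had the highest log2 fold change, 0.75 ± 0.23, and Rbbp6 the lowest, −0.22 ± 0.21. Without Ag 2 and Ag 5, 9 of the 13 passed there, all higher, against 50.5% of all genes in either direction. Without Ag 2 alone 5 did so (background 14.8%). In Ag against Naive none of the 13 passed without Ag 2 and Ag 5 together (background 4.61%). Nor did any pass without any one of Naive 1, 3 and 4, Ag 2 and 5 or Ag+Costim 3. Without Naive 5, 6 passed (background 21.5%).

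Among 9 genes of transcript termination and of the suppression of early sites, Cdk12 and Cdk13 fell in Ag+Costim against Naive and the other 7 did not pass, a share below the 44.7% called over all genes (23.6% lower). Both kinases phosphorylate RNA polymerase II, and Cdk12 is known to hold back the use of early poly(A) sites. Cdk13 fell by 1.27 ± 0.24 on the log2 scale, from 39.7 ± 12.3 to 14.8 ± 1.86 CPM (SD, n = 5, edgeR adjusted p = 0.00369), and Cdk12 by 1.04 ± 0.32 (edgeR adjusted p = 0.0221). The median of the 9 was −0.16. None passed in the other comparisons (2 at an unadjusted p under 0.05 in edgeR in each), in which Xrn2, the exonuclease that follows the cut, had the highest log2 fold change for Ag+Costim against Ag, 0.30 ± 0.09, and Cdk13 the lowest, −0.77 ± 0.24. In Ag against Naive all 9 were beneath 0, from −0.01 (Tox4) to −0.50 (Cdk13). Without Ag 2 and Ag 5, Xrn2 and Wdr82 rose and Cdk12 and Cdk13 fell in Ag+Costim against Ag, 4 of 9 against 50.5% of all genes, named after their values were seen.

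Of 8 genes of histone 3′ end formation and the Integrator cleavage module, 6 rose in Ag+Costim against Naive, with a median log2 fold change of 0.48, and none fell, against 21% of all genes called higher and 23.6% lower. Slbp, which binds the stem-loop at the end of histone mRNA, rose 2.76-fold (log2 fold change 1.46 ± 0.42, edgeR adjusted p = 0.0164), from 239 ± 117 to 603 ± 59.6 CPM. Zfp473, a protein of histone pre-mRNA processing, rose 4.12-fold, to 7.94 ± 1.65 CPM. Ints9 and Ints4, of the Integrator cleavage module, rose 1.37-fold and 1.39-fold. Replication-dependent histone genes are expressed in S phase. All 6 proliferation markers were also called higher in Ag+Costim than in Naive, with a median log2 fold change of 2.21. The part of proliferation in the rise of the 6 listed genes was not tested. None of the 8 passed in the other comparisons, with 2 at an unadjusted p under 0.05 in edgeR in each. The extremes were in Ag against Naive (Zfp473 highest at 1.63 ± 0.51, Casp8ap2 lowest at −0.16 ± 0.15) and in Ag+Costim against Ag (Slbp 0.64 ± 0.41, Lsm10 −0.29 ± 0.15). Without Ag 2 and Ag 5, 5 of the 8 passed in Ag+Costim against Ag, all higher, against 50.5% of all genes in either direction. Without Naive 5, Slbp and Zfp473 rose in Ag against Naive (background 21.5%).

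Of 16 genes that bind, extend or shorten poly(A) tails, 3 rose, 5 fell and 8 did not pass in Ag+Costim against Naive, a share called close to the 44.7% of all genes (21% higher, 23.6% lower). The lowest values were those of Tent5c and Tent5a, noncanonical poly(A) polymerases, with log2 fold changes of −2.97 ± 0.39 and −2.62 ± 0.40 (edgeR adjusted p = 0.00100 and 0.00177). Tent5c went from 49.3 ± 14.0 CPM in Naive to 16.3 ± 11.1 in Ag and 5.63 ± 0.888 in Ag+Costim. Both also fell in Ag against Naive, with log2 fold changes of −1.55 ± 0.37 and −1.70 ± 0.39 (edgeR adjusted p = 0.0258 and 0.0224). They were the 2 calls of the 16 in that comparison, against 6.71% of all genes. Both calls were lost without Ag 2 and Ag 5 together and without any one of Naive 1, 3 and 4. Tent2, a cytoplasmic poly(A) polymerase, rose 1.38-fold and Pabpc4, a poly(A)-binding protein, 1.31-fold in Ag+Costim against Naive. No gene of this list passed in Ag+Costim against Ag (7 at an unadjusted p under 0.05 in edgeR), where Cnot7, a deadenylase, had the highest log2 fold change, 0.44 ± 0.12, and Tent5c the lowest, −1.42 ± 0.37. Without Ag 2 and Ag 5, 6 of the 16 rose and 3 fell there, against 50.5% of all genes.

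The transcript table gives estimated counts for 84 annotated transcripts of the 10 factors. A change in transcript share was called where edgeR gave a gene and a transcript an adjusted p under 0.05 and the mean share moved by at least 10 percentage points. No factor of the 9 with more than 1 transcript was called in any comparison. The background was 0.547% of 7501 genes in Ag against Naive, 0.933% in Ag+Costim against Ag and 1.01% in Ag+Costim against Naive, with 448, 652 and 999 genes at an unadjusted p under 0.05. Without Ag 2 and Ag 5 none was called either, against 1.17% of genes in Ag against Naive and 2.46% in Ag+Costim against Ag. With limma in place of edgeR, Cstf3 and Papola were called in Ag against Naive (background 1.64%), none in Ag+Costim against Ag (background 0.6%), and Cpsf6, Cstf3 and Papola in Ag+Costim against Naive (background 8.45%).

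In Cstf3, transcripts that end early held a smaller mean share of the counts in Ag+Costim than in Naive. Cstf3-202 and Cstf3-206, whose ends are printed above, begin at the start of the gene and stop 27.9% and 25.2% of the way through it. Together they held 46.1%, 31.6%, 35.4%, 47.6% and 14.8% of the Cstf3 counts in Naive replicates 1 to 5. They held 22.1%, 12.7%, 21.2%, 20.8% and 18.0% in Ag and 11.4%, 12.5%, 11.6%, 10.2% and 11.6% in Ag+Costim. Every Ag+Costim library was lower than every other library, and 4 of the 5 Naive libraries were higher than every Ag library. In CPM, the remaining Cstf3 transcripts had 48.4, 51.6, 51.3, 50.9 and 77.5 in Naive, 65.7, 65.0, 49.5, 63.1 and 48.5 in Ag, and 77.1, 69.8, 71.8, 76.5 and 77.7 in Ag+Costim. The limma adjusted p of the long form Cstf3-201 was 0.0280 in Ag against Naive and 2.9e-05 in Ag+Costim against Naive. In the latter, edgeR gave Cstf3-201 an unadjusted p of 0.495, and the gene an adjusted p of 0.714.

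Early-ending transcripts of Pcf11 and Fip1l1 had lower mean shares in Ag+Costim than in Naive, but neither passed a test: the adjusted p was 0.456 in limma and 0.929 in edgeR for Pcf11-205, and 0.175 and 0.652 for Fip1l1-208. Pcf11-205, a single exon that runs from the first exon into the first intron, held 12.2%, 13.7%, 12.2%, 15.4% and 7.34% of the Pcf11 counts in Naive. The shares were 10.5%, 3.66%, 5.26%, 8.81% and 4.13% in Ag and 5.32%, 7.14%, 6.13%, 4.01% and 4.15% in Ag+Costim. Naive 5 was just above the highest Ag+Costim library. The remaining Pcf11 transcripts went from 52.4 to 88.5 CPM in Naive to 34.3 to 40.8 CPM in Ag+Costim. The fall of Pcf11 was thus also outside its early-ending transcripts. Fip1l1-208 held 8.39% to 16.6% of the Fip1l1 counts in Naive, 3.15% to 18.9% in Ag and 2.47% to 4.65% in Ag+Costim. Papola-211, which stops 46.1% of the way through Papola and has AATAAA, held a share with no such order. With the few counts of like transcripts its share ran from 11.6% to 17.2% in Naive, 4.50% to 21.7% in Ag and 12.8% to 17.4% in Ag+Costim.

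The early-ending transcripts were picked by a rule set after the shares were seen (start in the first 10% and end in the first 50% of the gene), so their shares are a description. Transcripts annotated as retained introns moved alike over the whole table. They held 7.98%, 5.84%, 5.93%, 8.24% and 3.76% of all counts in Naive, 6.08%, 3.08%, 5.02%, 5.79% and 2.48% in Ag, and 3.53%, 3.42%, 3.06%, 2.69% and 3.03% in Ag+Costim. Cstf3-202, Cstf3-206 and Fip1l1-208 are themselves annotated as retained introns, with 85.7%, 56.1% and 92.7% of their bases in no longer transcript of the gene. The percent of sequenced reads counted was 38.2 to 46.8 in Naive and 51.9 to 52.7 in Ag+Costim. In Ag replicates 1 to 5 it was 37.4, 52.4, 16.9, 44.3 and 53.6. Genes with a count numbered 30152 to 33853 in Naive and 23891 to 25410 in Ag+Costim. In Ag replicates 1 to 5 they numbered 37412, 21705, 44408, 31845 and 20949. The part of these library traits in the shares was not tested.

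**Figure D4:**
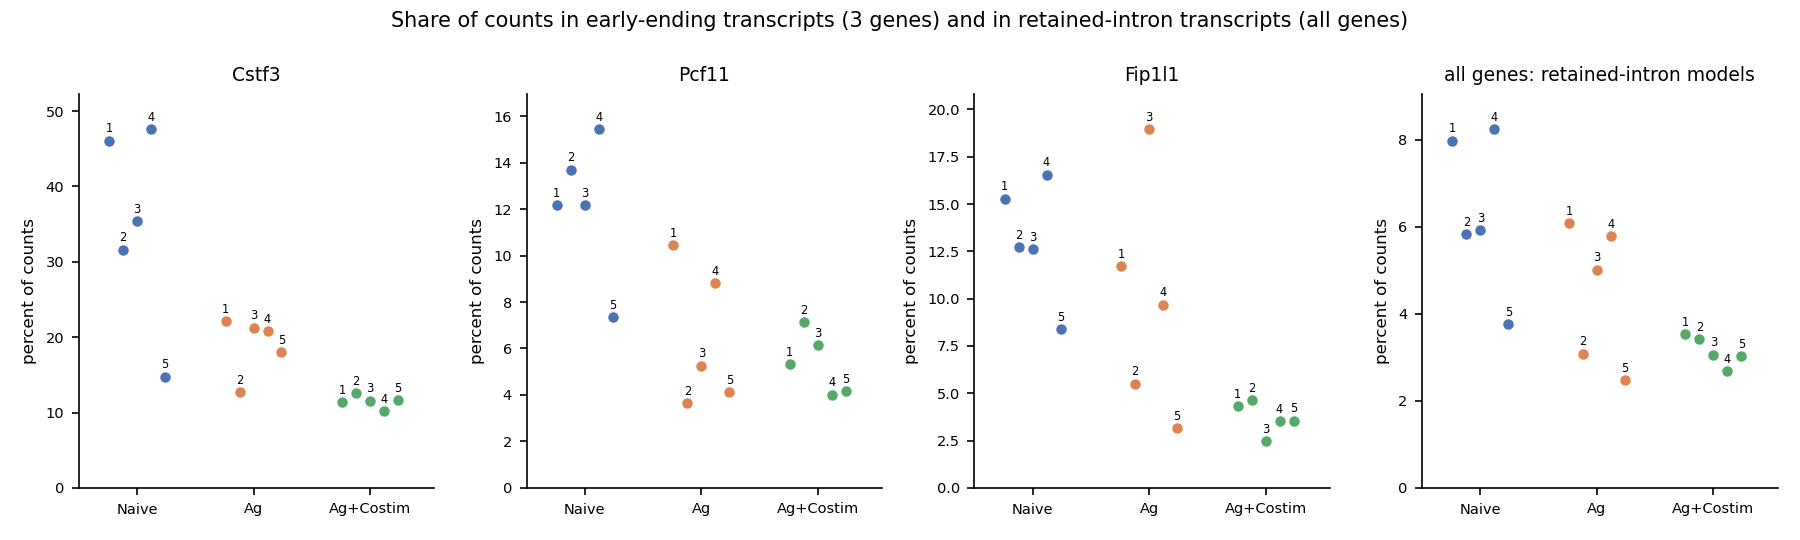
Percent of the counts of Cstf3, Pcf11 and Fip1l1 in early-ending transcripts, and percent of the counts of all genes in retained-intron transcripts, by library with replicate numbers (linear vertical axes from 0). In Cstf3 the Ag+Costim libraries sit at 10.2% to 12.5% and Naive 5 at 14.8%, and Naive 5 is the lowest Naive library in the all-gene panel as well.

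In Cpsf6, of the forms that end before the long form, Cpsf6-208 held a smaller share in Ag+Costim than in Naive. Cpsf6-208 held 22.1%, 19.4%, 14.6%, 18.1% and 10.9% of the Cpsf6 counts in Naive, and 11.7%, 5.46%, 3.91%, 19.2% and 5.31% in Ag. In Ag+Costim it held 6.23%, 8.63%, 3.08%, 4.45% and 5.56%, all lower than every Naive library. The long form Cpsf6-201 held 52.4% to 73.2% in Naive, 52.2% to 80.4% in Ag and 65.3% to 80.1% in Ag+Costim. For Cpsf6-208 the limma adjusted p was 0.00887 and the edgeR adjusted p 0.653 in Ag+Costim against Naive.

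In 2 factors the shares switched between transcripts from one library to the next within a group. Papola-214 held 4.77%, 4.84% and 4.44% of the Papola counts in Ag 2, 4 and 5 and 2.21% in Ag+Costim 3, against 47.2% to 71.0% in the other 11 libraries. Papola-202, whose end lies close to it, held 35.8%, 40.1%, 36.4% and 54.8% in those 4 libraries. Cpsf7-201 held 0% and 17.2% in Ag 2 and Naive 2, where Cpsf7-205 held 87.8% and 64.8%, and 79.2% to 94.1% elsewhere. Nudt21-201 held 71.8% to 97.5% of the Nudt21 counts over the 15 libraries.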

How the data were processed

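RNA from sorted CD8+ T cells was made into 15 libraries with SMART-Seq v4 and Nextera XT, which keep no strand. Per the labels, the authors aligned reads to mm10 with HISAT2 2.1.0, used SAMtools 1.9, and estimated counts with StringTie 2.1.0. The deposited gene and transcript tables hold whole-number estimated counts. A deposited quality table holds each library's read count, percent aligned, lane and input amount (unit not stated). It lists single reads of 50 bases, and the study's methods another length. The deposited FPKM table was not used, since the columns of Ag 1 and Naive 5 are identical. The annotation release is not given in the sources used here. Of 81881 gene entries 55536 matched GENCODE M21, and entries named by a number alone (0.0818% of counts) were left out.

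The gene test was run in edgeR 4.0.16 (R 4.3.3): filterByExpr, TMM scaling, a quasi-likelihood F test with 1 coefficient per group over all 15 libraries, two-sided, with Benjamini-Hochberg adjusted p under 0.05 called over 17366 genes. Log2 fold changes are given with an SE from the F statistic. Transcript shares were tested with diffSpliceDGE, with limma 3.58.1 as an alternative, and DESeq2 1.42.0 is an alternative for genes. CPM is the count over the library's total, and TPM was made from the transcript counts and annotated lengths. The sequences are from the GRCm38 genome and GENCODE M21. Scripts were tested on simulated data. The lowest chi-square over degrees of freedom between 2 libraries of a group was 4.75, so every pair differed by more than sampling noise.

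The factors and all lists were chosen with earlier results of these data known. All 10 factors are named. Of each other list and comparison, the genes past the threshold are named where these are 4 or fewer, otherwise the 2 highest and the 2 lowest of them, and with none, the highest and the lowest tested. Replicate numbers were not used as pairs in the main fit. The correlation of same-numbered deviations ran from −0.32 to 0.47. In Ag against Naive it was 0.42, 0.47 and 0.41 for replicates 1, 4 and 5. Recorded sex also matches by replicate number, so whether the numbers pair the samples is not decided.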

Additional observations from a re-analysis of the deposited data

Results flagged for a closer look

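In 39 groups of 5 libraries (the CPM of each factor and the early-ending shares of Cstf3, Pcf11 and Fip1l1), a library stood far from the other 4 in 4 cases, by a gap above 0.71 of the group's range. Chance alone gives about 1 in 20 groups. Cpsf6 had 257 CPM in Naive 5, against 163 to 171 in the other Naive libraries. Cstf2 had 149 CPM in Naive 5, against 73.6 to 94.2. Naive 5 also had the highest summed proliferation markers of its group, 1938 CPM, whose part in these values was not tested. Cpsf7 had 34.2 CPM in Ag+Costim 3, against 38.4 to 40.1 in the rest of the group. Nudt21 had 188 CPM in Ag+Costim 4, against 176 to 178.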

How the results depend on the processing

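The number of the 10 factors called depended on the settings. For Ag against Naive it was 0, and 3 with DESeq2, 3 with the replicate number as a block, and 0 to 3 with 1 library left out. For Ag+Costim against Ag it was 0, and 4 with DESeq2, 7 without Ag 2 and Ag 5, and 0 to 4 with 1 library left out. For Ag+Costim against Naive it was 5, and 3 with no filter on low counts, 0 with lane as a term, 3 within lane 3 alone, and 4 to 7 with 1 library left out. Without the filter, the median over all genes of the log2 fold change went to 0.58, −1.46 and −0.42 in the 3 comparisons, and the factors' values there stand against those shifts. For changed transcript shares the count was 0 in each comparison, and limma gave 2 for Ag against Naive and 3 for Ag+Costim against Naive, no filter gave 1 (Cpsf7) for Ag+Costim against Ag, and the replicate block, lane and left-out libraries (Ag 2 and Ag 5 together included) gave 0. The replicate block changed no other count of the factors called, and of the other lists it moved 1 count by over 1.5 times, from 2 to 4 core factors in Ag against Naive. Of the other lists, with 1 library left out, the core factors had 0 to 6, 0 to 5 and 4 to 10 calls in the 3 comparisons, termination genes 0 to 1, 0 to 1 and 1 to 2, histone and Integrator genes 0 to 2, 0 to 2 and 4 to 6, and tail genes 0 to 3, 0 to 5 and 5 to 9. With lane as a term the 4 lists had 1, 1, 0 and 2 calls in Ag+Costim against Naive and none in the others. The cause of these differences was not tested, and lane 3 alone holds fewer samples.

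Signs changed only in values that were not called. In Ag against Naive, Cpsf3 was at −0.092 with library totals alone, −0.027 with DESeq2, −0.10 with no filter, −0.012 with the libraries of the comparison alone and −0.22 without Ag 2 and Ag 5. Fip1l1 was at −0.070, −0.021, −0.10, −0.0080 and −0.057 under those settings. Cstf2 was at −0.011 with no filter and −0.24 without Ag 2 and Ag 5, Cpsf6 at −0.13 without both, and Papola at 0.055 with lane as a term. With 1 library left out, Cpsf3 ran from −0.086 to 0.084, Cstf2 from −0.0049 to 0.37 and Fip1l1 from −0.039 to 0.051. In Ag+Costim against Ag, Cstf2t was at 0.17 and Pcf11 at 0.092 with no filter, and Pcf11 ran from −0.34 to 0.013 with 1 library left out. In Ag+Costim against Naive, Cstf3 was at −0.042 and Fip1l1 at −0.062 with library totals alone. The 5 factors called in Ag+Costim against Naive kept their direction under all 22 alternatives.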
